A study of Mus musculus with 6 samples.

Results

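The 7 genes described here, Umod, Egf, Bsnd, Wfdc15b, Mal, Tmem52b and Ppp1r1a, were taken by symbol as proteins of the loop of Henle or subunits of its chloride channels, and all 7 were present among the 23420 gene symbols of the deposited count table. They were followed in polyadenylated RNA from mouse fetal kidneys at embryonic day 18.5. Wild-type females had been mated with males heterozygous for a Six2-GFP transgene, and only kidneys of transgenic embryos (7 of the 11 embryos dissected in the experiment that the protocol describes) were sorted. Both groups therefore carried the same transgene: Six2-high is the GFP-positive fraction, in which the fluorescence marks the cap mesenchyme, and Six2-low is the GFP-negative fraction, which holds every other kidney cell that passed the scatter gate. Each fraction had 3 libraries. Replicate 1 was purified with the TRI kit at an earlier date tag, replicate 2 with the Norgen kit and replicate 3 with the TRI kit at a later one, and a replicate number joins the Six2-high and Six2-low libraries of 1 preparation. The labels do not say which embryos went into which preparation, so p-values measure the spread between these libraries, which may in part be technical.

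The loop of Henle joins the proximal to the distal tubule. Cells of its thick ascending limb take up sodium, potassium and chloride from the urine through the cotransporter NKCC2 (gene Slc12a1), return potassium through ROMK (Kcnj1), and let chloride leave on the blood side through channels that need the subunit barttin (Bsnd) to reach the membrane. The same cells secrete uromodulin (Umod), the most abundant protein of normal urine. In the adult mouse, the thick ascending limb and the distal convoluted tubule behind it also make the precursor of epidermal growth factor (Egf). Nephron progenitors of the cap mesenchyme precede these cells in development.

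Total counts ran from 23535399 to 29791421 per library, so that a level of 1 CPM (the count relative to the TMM-scaled library total) stood for 20.4 to 31.0 counts. Six2 was at 849, 1480 and 1340 CPM in Six2-high replicates 1 to 3 and at 23.4, 11.2 and 11.1 CPM in Six2-low, which checks the sort. Six2-high replicate 3 stood apart by its share of the ribosomal RNA precursor Rn45s, 9.59% of counts against at most 0.676% in the other libraries. Of the 8 loop of Henle markers chosen for the check, 7 were lower in Six2-high (Slc12a1, Kcnj1, Cldn10, Cldn16, Cldn19, Irx1 and Irx2), and their summed level, with Ptger3, was 489 to 649 CPM in Six2-low and 7.47 to 13.0 CPM in Six2-high. The remaining marker, the prostaglandin receptor gene Ptger3, had means of 4.26 ± 2.46 CPM in the GFP-positive and 4.37 ± 1.39 CPM in the GFP-negative libraries (SD, n = 3), but its preparations went opposite ways. Six2-high was at 252%, 67.1% and 44.2% of Six2-low in replicates 1 to 3, and without replicate 1 Ptger3 was called lower (-0.86, adjusted p = 0.035).

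RefSeq promoters (build GRCm38.p6) were at hand for 5 of the 7 genes, and the bases before their starts are shown because 4 of these genes, Umod, Wfdc15b, Mal and Tmem52b, were lower together in Six2-high while Egf was not. No letters are in capitals because none matched the motifs searched, and each line reads 5′ to 3′ on the gene's own strand up to the first annotated base of the gene.
Umod (chr7:119479283-119479512, minus strand): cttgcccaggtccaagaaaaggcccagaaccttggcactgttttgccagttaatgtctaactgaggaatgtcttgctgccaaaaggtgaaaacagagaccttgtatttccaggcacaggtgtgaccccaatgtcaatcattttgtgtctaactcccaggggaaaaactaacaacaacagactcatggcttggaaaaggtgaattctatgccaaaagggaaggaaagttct
Wfdc15b (chr2:164221664-164221913, minus strand): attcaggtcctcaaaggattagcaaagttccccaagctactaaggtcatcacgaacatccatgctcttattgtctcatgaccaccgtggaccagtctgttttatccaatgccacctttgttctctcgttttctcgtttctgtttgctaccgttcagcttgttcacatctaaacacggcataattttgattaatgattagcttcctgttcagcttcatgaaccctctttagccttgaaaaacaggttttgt
Mal (chr2:127656696-127656945, minus strand): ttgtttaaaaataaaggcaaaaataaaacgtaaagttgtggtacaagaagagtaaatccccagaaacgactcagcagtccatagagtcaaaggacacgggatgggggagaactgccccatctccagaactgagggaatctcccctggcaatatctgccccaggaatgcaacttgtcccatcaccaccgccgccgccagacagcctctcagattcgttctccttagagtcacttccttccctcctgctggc
Tmem52b (chr6:129512307-129512554, plus strand): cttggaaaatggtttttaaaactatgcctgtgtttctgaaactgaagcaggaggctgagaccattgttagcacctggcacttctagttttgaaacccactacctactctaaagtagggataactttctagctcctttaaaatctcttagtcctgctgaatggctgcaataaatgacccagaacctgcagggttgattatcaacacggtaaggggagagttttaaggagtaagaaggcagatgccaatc
Egf (chr3:129755323-129755572, minus strand): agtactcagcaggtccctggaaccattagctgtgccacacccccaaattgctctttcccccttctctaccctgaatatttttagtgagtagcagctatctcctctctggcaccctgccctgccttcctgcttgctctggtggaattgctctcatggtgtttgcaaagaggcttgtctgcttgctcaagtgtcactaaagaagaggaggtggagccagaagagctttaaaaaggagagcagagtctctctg

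The 250 bases before each RefSeq start were searched on both strands for the TATA box TATAAA and for the motif TCAGGTTTC of factors such as Six2. TATAAA occurred in 12.4% and TCAGGTTTC in 0.387% of 32851 RefSeq promoters over the same length, and neither was in a window of the 5 genes. This says only that these letters are not in these windows.

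The comparison of fractions asks which transcripts separate nephron progenitors from the rest of the kidney. Of the 7 genes, 5 were lower in Six2-high at an adjusted p under 0.05 by edgeR's quasi-likelihood test over 15347 tested genes, where 28.7% of all tested genes were lower. 1 gene, Ppp1r1a, was higher, where 21.4% of all tested genes were higher, and Egf did not pass. In all, 50.1% of tested genes were called. With the preparation as a replicate block the same 5 genes were lower and Ppp1r1a higher, against 64.6% of tested genes called, 33.0% lower and 31.7% higher. The 2 groups of libraries did not overlap in 6 of the 7 genes, against 60.0% of all tested genes. The 5 lower genes all had log2 fold changes (Six2-high minus Six2-low) below -5, a limit chosen after the values were seen, and 3.53% of all tested genes were called lower by as much. So 5 genes were much lower in the progenitor fraction, while Ppp1r1a was most abundant there. Loop of Henle markers had a median log2 fold change of -6.38, endothelial markers -7.29 and immune markers -6.67. A decrease of this size therefore does not place the 5 genes in the loop of Henle. In such bulk samples, fewer cells of a type and less RNA per cell cannot be told apart.

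**Figure D1:**
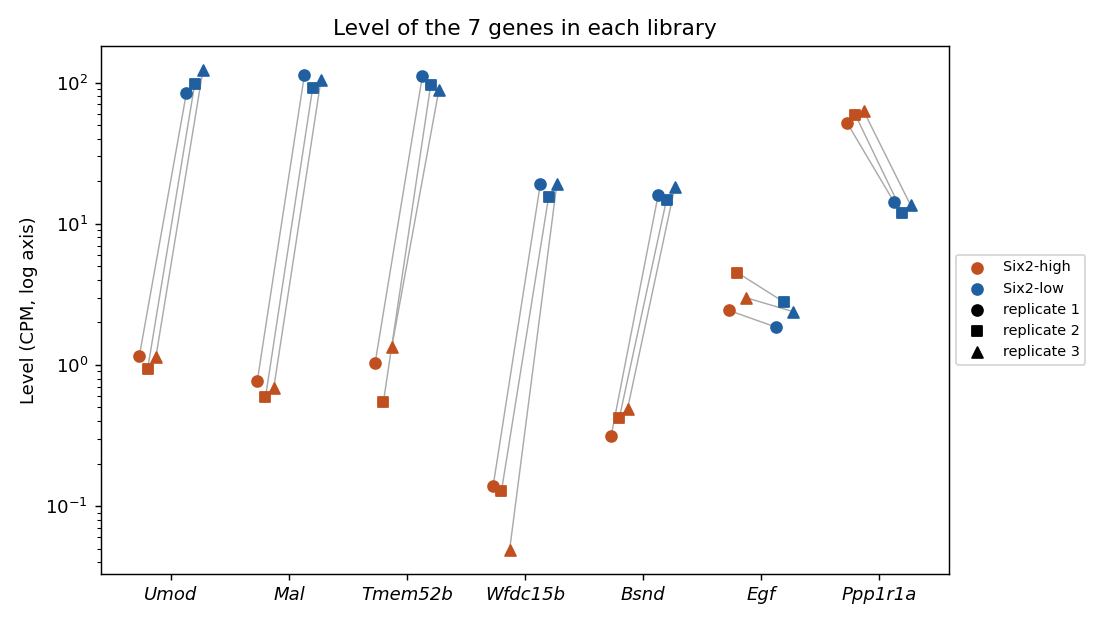
Level of each gene in CPM (log axis) in the 3 Six2-high libraries (orange) and the 3 Six2-low libraries (blue), with symbols for the replicates and grey lines joining the libraries of 1 preparation. Umod, Mal, Tmem52b, Wfdc15b and Bsnd fell steeply from blue to orange in every preparation, Egf lay close to level, and Ppp1r1a was higher in Six2-high in every preparation.

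Positions are those of mm10 in GENCODE M21. Among the secreted proteins, Umod (chromosome 7, 119462711 to 119479282, minus strand) was more abundant than Wfdc15b in CPM. It encodes a membrane-anchored glycoprotein that is cut loose into the urine. Its level was 84.8, 97.8 and 123 CPM in Six2-low replicates 1 to 3 and 1.15, 0.928 and 1.13 CPM in Six2-high. The lowest Six2-low library was thus far above the highest Six2-high library, and within Six2-low replicate 3 was the highest. The log2 fold change was -6.57 (SE 0.21, adjusted p = 3.6e-07).

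Wfdc15b (chromosome 2, 164214454 to 164221660, minus strand) encodes a small secreted protein with a WAP domain, a fold shared with protease inhibitors. It had 4, 3 and 1 counts in Six2-high replicates 1 to 3 and 517, 395 and 592 counts in Six2-low. In CPM this was 0.139, 0.127 and 0.0491 against 19.1, 15.4 and 19.1. Its Six2-high level was the lowest of the 7 genes and rested on these few counts. The log2 fold change was -7.29 (SE 0.30, adjusted p = 7.7e-07).

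Among the membrane proteins, Mal (chromosome 2, 127633226 to 127656695, minus strand) encodes a proteolipid that carries cargo to the apical surface of epithelial cells. Its level was 113, 91.8 and 104 CPM in Six2-low and 0.765, 0.590 and 0.687 CPM in Six2-high. The libraries of a fraction lay close together, and the difference within preparations was nearly the same, at -7.07, -7.10 and -7.09 log2 units (log2 CPM with a prior count of 2). Over all libraries the log2 fold change was -7.22 (SE 0.17, adjusted p = 2.2e-07), the smallest SE among the 5 lower genes.

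Tmem52b (chromosome 6, 129512555 to 129519227, plus strand) encodes a small transmembrane protein. Its level was 111, 95.5 and 88.8 CPM in Six2-low and 1.04, 0.548 and 1.33 CPM in Six2-high. Within preparations its difference varied more than that of Mal, at -6.63, -7.26 and -5.99 log2 units, with the largest in the Norgen preparation. The log2 fold change over all libraries was -6.66 (SE 0.26, adjusted p = 6.2e-07).

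Bsnd (chromosome 4, 106483456 to 106492283, minus strand) encodes barttin, which is also found in intercalated cells of the collecting duct. Its level was 16.1, 14.8 and 18.1 CPM in Six2-low and 0.313, 0.422 and 0.491 CPM in Six2-high. It had the smallest decrease of the 5 lower genes, with a log2 fold change of -5.33 (SE 0.24, adjusted p = 1.2e-06). The 95% interval of that value, -5.88 to -4.78, lies above the interval of each of the other 4, of which the nearest is that of Tmem52b at -7.25 to -6.08.

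Of the 10 CLC channel, transporter and Ostm1 genes, all tested, 4 were lower and 1 higher, with a median log2 fold change of -0.35 against 0.046 over all tested genes. For this and each later list, the shares over all tested genes were 28.7% lower and 21.4% higher. The endosomal exchanger gene Clcn3 was lower by a log2 fold change of -0.79 (SE 0.12). Ostm1, the partner of the lysosomal exchanger ClC-7, was lower by -0.77 (SE 0.13). Clcn4-2 was higher at 0.46 (SE 0.11, adjusted p = 0.0091), though not with scaling by total counts (adjusted p = 0.12) and not in the fits that left out preparation 2 (adjusted p = 0.067) or 3 (adjusted p = 0.059). Clcn2, a widely expressed channel gene, was at 76.2 ± 29.2 CPM in Six2-high and 47.4 ± 12.3 in Six2-low, which did not pass (adjusted p = 0.067) but did with the preparation as a replicate block (adjusted p = 0.0025).

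Chloride channel genes outside the CLC family went both ways. Of 17 tested genes among the 19 listed, 9 were lower and 2 higher, with a median log2 fold change of -0.35, and 9 and 4 with the replicate block. Over all tested genes 28.7% were lower and 21.4% higher, or 33.0% and 31.7% with the block. Ano1, a calcium-activated channel gene, was at 15.6 ± 4.49 CPM in Six2-high and 76.2 ± 8.74 in Six2-low (-2.28, SE 0.20), and Ano6, a lipid scramblase gene with channel activity, was lower by -0.86 (SE 0.10). Ano2 was higher by 2.01 (SE 0.50) at a mean of only 0.871 CPM. Cftr, the cystic fibrosis channel gene, was at 40.7, 22.9 and 19.4 CPM in Six2-high against 17.4, 16.8 and 16.7 CPM in Six2-low. It passed narrowly (0.71, SE 0.26, adjusted p = 0.049), did not pass in 11 of 18 alternatives, and its value was 0.30 without Six2-high replicate 1.

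Egf (chromosome 3, 129677565 to 129755316, minus strand) encodes the membrane precursor of epidermal growth factor. It was low in every library, at 2.43, 4.51 and 3.00 CPM in Six2-high against 1.85, 2.77 and 2.39 CPM in Six2-low. The groups overlapped, each preparation had more in Six2-high, and the Norgen preparation had the highest level of both fractions. The log2 fold change was 0.50 (SE 0.31, 95% interval -0.20 to 1.20, adjusted p = 0.20), and with the replicate block 0.48 (SE 0.21, adjusted p = 0.082). The lower bound of -0.20 lies above the intervals of the 5 lower genes.

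Other genes of the EGF family and its receptors were mostly lower in Six2-high: of 11 tested genes among 14, 8 were lower and 1 higher, with a median of -2.49. Egfr, the receptor of EGF, named here after its values were seen, was at 1.55 ± 0.587 CPM in Six2-high against 22.2 ± 5.91 CPM in Six2-low (-3.81, SE 0.32). Erbb3, a neuregulin receptor gene, had the same log2 fold change of -3.81 (SE 0.20). Erbb2, the shared coreceptor, was at 104 ± 16.8 against 131 ± 8.34 CPM and did not pass (adjusted p = 0.062), but passed with the replicate block (adjusted p = 0.014). Among ligands of the EGF receptor, Hbegf was lower by -1.57 (SE 0.17). Tgfa was the higher gene, at 63.1 ± 15.3 against 29.8 ± 3.27 CPM (1.09, SE 0.18, adjusted p = 0.0012).

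Ppp1r1a (chromosome 15, 103530279 to 103538003, minus strand) encodes inhibitor 1 of protein phosphatase 1, which blocks that phosphatase once protein kinase A has phosphorylated it. Its level was 52.0, 59.3 and 63.2 CPM in Six2-high replicates 1 to 3 and 14.2, 12.0 and 13.5 CPM in Six2-low. Every Six2-high library was thus above every Six2-low library, and the Six2-low libraries still held well over 10 CPM each. The log2 fold change was 2.14 (SE 0.13, adjusted p = 4.3e-06), a 4.40-fold higher level. Within preparations the difference was 1.87, 2.30 and 2.22 log2 units, lowest in replicate 1. Six2 itself also had its smallest difference there, at 5.18 log2 units against 7.03 and 6.91. The part of sorting purity in either value was not tested.

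The phosphatase and kinase that inhibitor 1 connects were nearly level. Of 10 tested genes among 11 (catalytic and regulatory subunits and other inhibitors), 2 were lower and 1 higher, with a median of 0.07, and 2 and 3 with the replicate block. The shares over all tested genes were 28.7% and 21.4%, or 33.0% and 31.7% with the block. The catalytic subunit gene Ppp1cb was at 210 ± 20.4 CPM in Six2-high and 182 ± 17.9 in Six2-low (adjusted p = 0.19), or adjusted p = 0.024 with the replicate block. The lower genes were other phosphatase inhibitors: Ppp1r1b, encoding DARPP-32, at 4.53 ± 1.82 against 11.4 ± 0.281 CPM (-1.34, SE 0.29), and Ppp1r2 (-0.45, SE 0.10). Neither passed in 1 of the fits without a whole preparation, Ppp1r1b without replicate 2 (adjusted p = 0.051) and Ppp1r2 without replicate 3 (adjusted p = 0.078). So the related inhibitor gene Ppp1r1b had the direction opposite to Ppp1r1a. The higher gene, named here after its values were seen, was Prkar2b, a regulatory subunit of protein kinase A (1.02, SE 0.19, adjusted p = 0.0025).

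Levels between genes were compared as CPM per kilobase of exon, with lengths from GENCODE M21. In Six2-low, Mal was at 37.1 ± 3.90 CPM per kb (SD, n = 3), Umod at 36.9 ± 7.08, Tmem52b at 31.3 ± 3.55 and Wfdc15b at 31.3 ± 3.75. These 4 overlapped across libraries and also overlapped with Slc12a1, at 40.5 ± 6.59 CPM per kb. Wfdc15b stood among them only on this scale, since its exons cover 572 bases against 2763 for Umod. Ppp1r1a at 10.1 ± 0.847 and Bsnd at 5.92 ± 0.600 CPM per kb followed without overlap, and Egf was far below at 0.207 ± 0.0409. In Six2-high, Ppp1r1a reached 44.5 ± 4.35 CPM per kb, and the other 6 genes had means between 0.148 and 0.387. Egf was at 0.294 ± 0.0954 CPM per kb there, and each of its libraries was above each library of Bsnd, at 0.148.

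**Figure D2:**
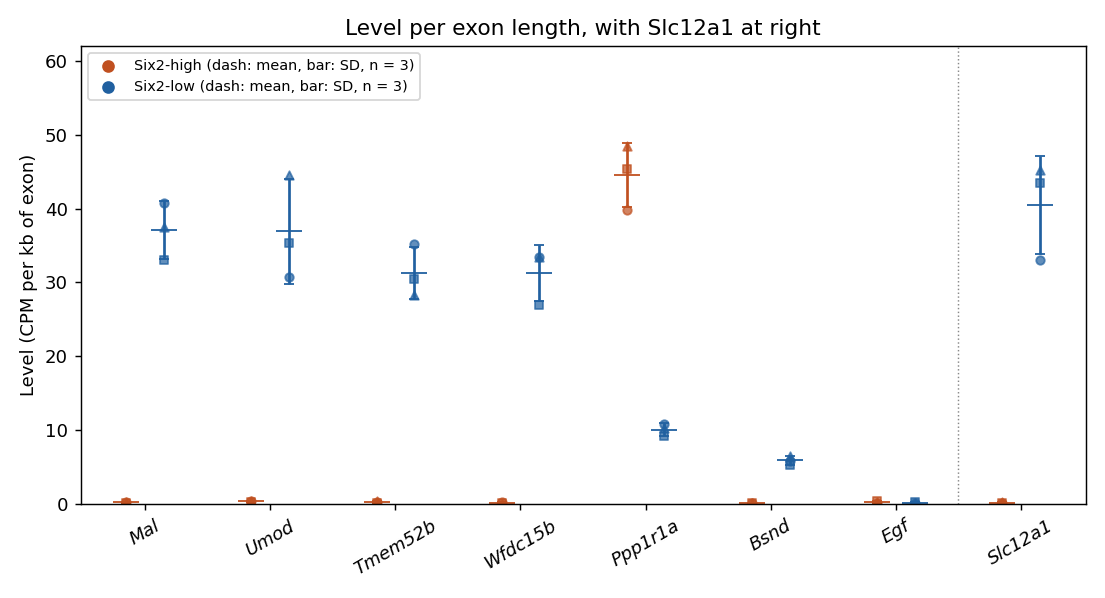
Level in CPM per kilobase of exon in Six2-low (blue) and Six2-high (orange), with a symbol for each library (circle, square and triangle for replicates 1, 2 and 3), a dash for the mean and a bar for the SD. Mal, Umod, Tmem52b and Wfdc15b sit between 26.9 and 44.6 CPM per kb in Six2-low, and Ppp1r1a is the only 1 of the 7 with its higher level in Six2-high beyond the library spread.

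The Six2-low libraries differed among themselves by gene. Relative to Slc12a1 counts in the same library, Umod was at 0.446, 0.390 and 0.474 in replicates 1 to 3. Mal was at 0.596, 0.366 and 0.401, Tmem52b at 0.581, 0.381 and 0.341, and Wfdc15b at 0.101, 0.0614 and 0.0734. Bsnd was at 0.0849, 0.0590 and 0.0694 and Ppp1r1a at 0.0745, 0.0479 and 0.0518. Slc12a1 itself was lowest in replicate 1 (190, 251 and 260 CPM), and all of these genes except Umod had their highest ratio there. Replicate 1 is the earlier date tag and the library with the most erythroid RNA, where Alas2, an enzyme of heme synthesis, was at 115 CPM against 6.01 and 7.10 CPM in replicates 2 and 3. All 6 erythroid markers together were at 1620 CPM there against 134 and 135 CPM. Each combination of date and kit has 1 library per fraction, no test of kit or date was run, and the part of erythroid RNA was not tested.

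The 5 lower genes kept a small level in Six2-high. Their mean there was 0.587% (Wfdc15b), 0.660% (Mal), 0.989% (Tmem52b), 1.05% (Umod) and 2.50% (Bsnd) of the mean in Six2-low. The 8 loop of Henle markers had a median of 1.31%, the 8 ureteric bud and collecting duct markers 1.07%, the 7 endothelial markers 0.631% and the 7 immune markers 0.984%. The 9 proximal tubule markers had a median of 6.90%, the 7 podocyte markers 9.62% and the 7 stroma markers 6.72%. So all 5 genes lay below the medians for proximal tubule, podocyte and stroma markers. Bsnd was above the highest endothelial marker (1.56%) and the highest immune marker (1.33%). It lay within the range of the loop of Henle markers, which ran from 0.481% (Slc12a1) to 4.61% (Cldn10) apart from Ptger3 at 97.4%. It also lay within that of the 8 intercalated cell markers (0.19% to 3.94%, median 0.907%). These percentages are descriptions, and the part of other cells carried into the Six2-high gate was not tested.

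**Figure D3:**
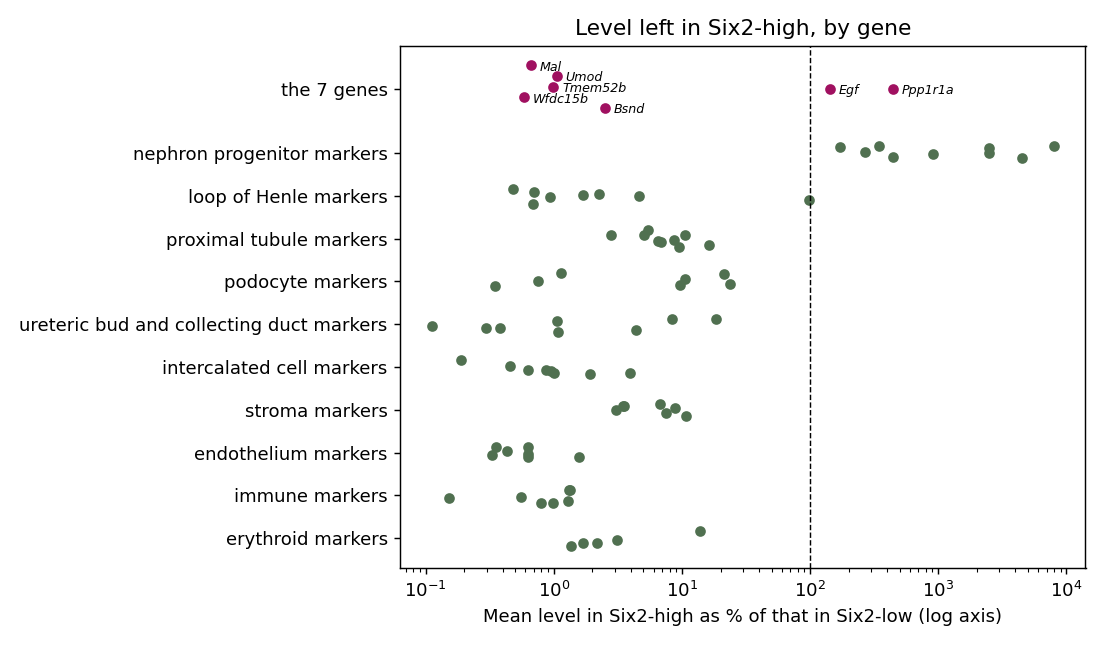
Mean CPM in Six2-high as a percentage of that in Six2-low (log axis) for the 7 genes (purple) and for the markers of 10 cell types (green, a point per gene), with the dashed line at equal levels. Markers at 0 in Six2-high are not drawn. 5 of the 7 genes lie between 0.587% and 2.50%, near most loop of Henle markers. The medians of the collecting duct, intercalated cell, immune and endothelial markers also lie in that range. Ppp1r1a (440%) lies among the nephron progenitor markers. Egf (142%), which was not called, lies below the lowest of them (172%).

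Genes that work beside these proteins were compared by lists, beside 28.7% of all tested genes lower and 21.4% higher. Of 20 thick ascending limb transport genes 19 were tested, 15 lower and 1 higher in Six2-high, with a median log2 fold change of -4.44. Slc12a1 had the largest decrease among them, from 234 ± 38.0 to 1.12 ± 0.338 CPM (-7.73, SE 0.24), and Kcnj1 was lower by -5.48 (SE 0.40). Atp1b1, a beta subunit gene of the sodium pump, was lower by -4.10 (SE 0.16). Of the kinases that control the cotransporters, Wnk4 was the higher gene, at 184 ± 81.9 against 83.4 ± 17.8 CPM (1.14, SE 0.29, adjusted p = 0.011), though not without both libraries of replicate 3 (adjusted p = 0.064). Wnk1 was at 241 ± 50.9 against 204 ± 13.4 CPM (adjusted p = 0.23).

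Of 8 distal convoluted tubule genes 6 were lower and 1 higher, with a median of -3.55. Slc12a3, the thiazide-sensitive cotransporter gene, was lower by -4.07 (SE 0.69), from 69, 1 and 40 counts in Six2-high. Its value was -4.72 without Six2-high replicate 1, -4.94 without both libraries of replicate 1 and -3.30 without both of replicate 2. Calb1, encoding a calcium-binding protein also found in the ureteric bud, was lower by -6.47 (SE 0.50), or -7.43 without Six2-high replicate 1. Trpm6, the magnesium channel gene whose product responds to EGF, was the higher gene, at 12.6, 10.1 and 9.18 CPM in Six2-high against 3.59, 4.06 and 3.29 CPM in Six2-low (1.55, SE 0.20, adjusted p = 0.00029). All 11 transcription factor genes of the distal nephron were lower (median -5.22). Irx1 was lower by -7.14 (SE 0.40), Pou3f3 by -5.34 (SE 0.59) and Mecom by -2.70 (SE 0.13). Without Six2-high replicate 1 the value was -7.79 for Irx1 and -6.76 for Pou3f3.

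Since barttin also serves intercalated cells, 8 of their genes were compared, and all 8 were lower (median -6.80). Atp6v1b1, a proton pump subunit gene, was at 36.7 ± 2.39 CPM in Six2-low (-7.34, SE 0.25), Slc4a9, an anion transporter gene, at 37.9 ± 10.6 (-8.78, SE 0.48) and Foxi1, their transcription factor gene, at 15.4 ± 5.23 (-6.89, SE 0.47). Slc4a9 rested on 5, 1 and 0 counts in Six2-high and was at -10.44 without Six2-high replicate 1, and Foxi1 was at -6.09 without both libraries of replicate 1. Slc4a1 is shared with red cells and was at 155 CPM in Six2-low replicate 1 against 4.02 and 5.58 CPM in the others. Intercalated cell genes and Slc12a1 were thus both present in Six2-low, and how much of the Bsnd level came from either cell type was not tested.

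**Figure D4:**
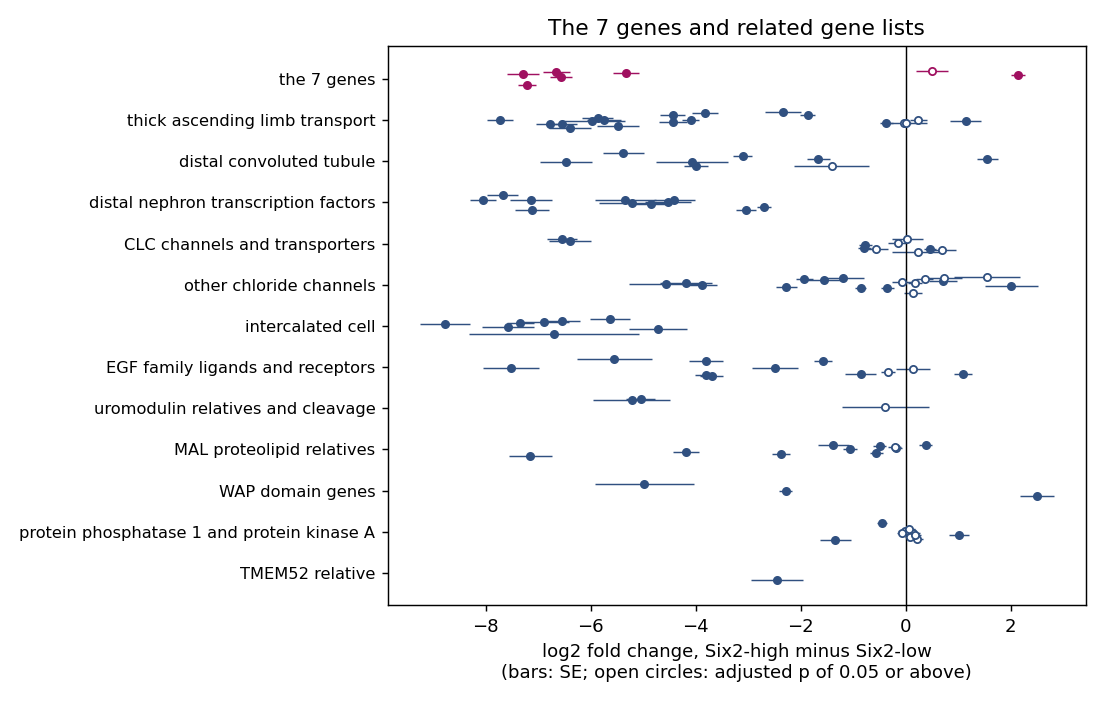
Log2 fold change (Six2-high minus Six2-low, bars are SE) of the 7 genes (purple) and of each tested gene of the related lists (blue), filled where the adjusted p was under 0.05. The distal nephron transcription factors and intercalated cell genes all lie on the lower side, while the phosphatase and kinase genes gather near 0 and Ppp1r1a lies at 2.14.

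Relatives of the members differed within their own families. Hpn, encoding the protease that releases uromodulin, was at 2.29 ± 0.597 CPM in Six2-high and 74.9 ± 20.0 in Six2-low (-5.05, SE 0.28). Gp2, a close relative of Umod, was called lower from 0, 1 and 0 counts in Six2-high against 20, 20 and 17 in Six2-low, too few for a fold. Of the 3 genes tested among 4 in that list 2 were lower. Of the 10 proteolipid genes related to Mal, 7 were lower and 1 higher (median -0.81). Mal2, also a gene of apical transport, was lower by -7.15 (SE 0.41) and Pllp, encoding plasmolipin, by -4.18 (SE 0.25). Cmtm3, the higher gene (0.38, SE 0.12, adjusted p = 0.029), did not pass in 8 of 18 alternatives, among them those without Six2-high replicate 3, Six2-low replicate 2 or Six2-low replicate 3.

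Of 7 WAP domain genes 3 were tested. Wfdc2 was at 35.7 ± 3.02 in Six2-high against 174 ± 11.8 CPM (-2.29, SE 0.12), a much smaller decrease than that of Wfdc15b. Slpi, a leukocyte protease inhibitor gene, was called lower from 2, 0 and 0 counts against 50, 16 and 17. Wfdc1 was higher, at 7.03 ± 2.62 against 1.23 ± 0.124 CPM (2.50, SE 0.32). Wfdc15a, named as the sister gene of Wfdc15b, had 2 counts over the 6 libraries. Tmem52, the relative of Tmem52b, was lower by -2.45 (SE 0.50) at 0.245 ± 0.124 against 1.32 ± 0.460 CPM.

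Likeness between genes was measured as the Euclidean distance between log2 CPM profiles over the 6 libraries, each centred on its own mean, among 14312 tested genes. Within the set, Wfdc15b and Mal were closest (0.84), followed by Umod and Wfdc15b (0.87), and Mal and Ppp1r1a were farthest apart (11.30). The nearest gene outside the set was Atp8b1 for Umod (distance 0.44), Cdh1, encoding E-cadherin, for Mal (0.51), F2rl1 for Wfdc15b (0.50), C1qa, a macrophage complement gene, for Tmem52b (0.41) and Ly6a for Bsnd (0.24). Prpf40b was nearest to Egf (0.13) and Ednra, an endothelin receptor gene, to Ppp1r1a (0.27). Ednra was at 162 ± 16.2 CPM in Six2-high against 37.1 ± 5.56 CPM in Six2-low. To the mean profile of all 7, which mixes both directions, the nearest were Slc7a9 (0.17), Ap1m2 (0.23), Slc2a2 (0.24), Ms4a7 (0.26) and Elf3 (0.26). With 6 libraries the distance is set mostly by the size of the fraction difference, so genes of unlike cell types, such as C1qa, come near.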

How the data were processed

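The authors deposited raw gene counts, and a normalised signal made from them, for 23420 symbols in 6 libraries. Per the submitters' processing notes, the tools were TopHat, TopHat2 (2.1.0), HTSeq (0.6.1p1), SAMtools and DESeq2, and the build mm10. No role, annotation or strand setting is stated for them. Dividing each library's counts by its DESeq2 size factor gave the deposited signal, which served for that check alone. 3662 genes had no counts. Exon positions of Umod and Egf overlap with other annotated genes, of which 1 is in the table with 4 counts in all.

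Counts were tested with edgeR 4.0.16 (R 4.3.3): filterByExpr, TMM, and a two-sided quasi-likelihood F test of fraction with no block. Calls are at a Benjamini-Hochberg adjusted p under 0.05 over 15347 genes. The SE is the log2 fold change divided by the root of F, and intervals use its degrees of freedom. The test was run on simulated data with few changed genes and no preparation effect, unlike these data. That check does not cover the conditions here. Alternatives include DESeq2 1.42.0. The tags give the pairing: deviations from the fraction means correlated across genes at 0.37, 0.42 and 0.33 within preparations. The members, lists and motifs were chosen with earlier results of these data known. Named genes are the members, the 4 most abundant genes of each list and those against its median, any gene of lists of up to 10, and the nearest profiles. Others are named as markers or marked as chosen afterwards. Kit and date were not tested. Some genes of the lists are not reported here.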

Additional observations from a re-analysis of the deposited data

How the results depend on the processing

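Over 18 alternatives, 5 of the 7 genes were called lower and 1 higher each time, and every value of the 7 kept its direction and its side of the threshold (126 of 126). The log2 fold change ran from -6.79 to -6.41 for Umod, -7.57 to -6.97 for Wfdc15b, -7.37 to -7.12 for Mal, -6.98 to -6.38 for Tmem52b, -5.48 to -5.17 for Bsnd, 1.98 to 2.23 for Ppp1r1a and 0.22 to 0.66 for Egf, whose adjusted p ran from 0.082 to 1. Removing Rn45s and Lars2 was chosen after seeing the data. Over all genes, 3285 were higher and 4401 lower. With total counts only, 1816 were higher, and that scaling moved the median of all genes from 0.046 to -0.106. Against a 2-fold threshold 546 were higher and 2662 lower, and with same-date libraries summed 1995 were higher. Leaving out 1 library or 1 preparation gave between 1329 and 3183 higher and between 3300 and 4579 lower. It was 1329 higher without replicate 3, 2086 without replicate 2 and 2160 without Six2-low replicate 2. The cause was not tested. With the replicate block 4860 were higher and 5059 lower, and it changed no call of the 7 genes. Ptger3, not called, had values of 0.08 to 0.39 when Six2-high replicate 2 (0.10) or 3 (0.27), Six2-low replicate 2 (0.13) or 3 (0.08), or replicate 2 (0.25) or 3 (0.39) was left out, and 0.31 with same-date libraries summed, against -0.03. Without replicate 1 it was called lower, at -0.86 (adjusted p = 0.035). Wfdc15b in Six2-high rests on 8 counts in all, so its fold is the least certain of the 5.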
